A study of Mus musculus with 22 samples.

Results

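The peaks described here are those that lie between 21.78 and 23.87 Mb of mouse chromosome 13 (build mm9), the stretch that holds the Hist1 cluster of histone genes. Members were chosen by position alone, and every peak of the 10 deposited peak lists that touched this window of 2.09 Mb was taken. They number 261 of 110069 peaks, 228 of them for H3K4me3 and 33 for H3K27me3. Chromatin immunoprecipitation and sequencing had been done on 5 cell types of C57BL/6JOlaHsd mouse neocortex, with no genetic or drug treatment named in the labels. Neuroepithelial cells (NEC) came from embryos at E9.5. At E14.5, the apical radial glia were split into a proliferative (aRG-P) and a neurogenic (aRG-N) population, and basal radial glia (bRG) and the neurons (N) were taken as well. Each of the 10 groups had 2 samples, which had been combined before peaks were called. No value below therefore has a spread between replicates, no difference between cell types was tested, and the read depth is unknown. The lists carry positions without gene names, so the cell types could not be checked against marker genes and no peak is assigned to a gene.

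Replication-dependent histone genes encode the H1, H2A, H2B, H3 and H4 proteins that package newly copied DNA. They are short genes without introns, transcribed mainly during S phase, and their messages end in a stem-loop in place of a poly(A) tail. H3K4me3 marks active and poised promoters, and H3K27me3 is the mark of Polycomb repression. The 4 progenitor types divide, whereas cortical neurons have left the cell cycle, and the comparison of both asks whether the promoter mark in the cluster differs between them.

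RefSeq (GRCm38.p6, another build than that of the peaks) lists 54 histone genes in the cluster up to Trim38, of which 2 are pseudogenes. The protein-coding ones comprise 6 H1, 12 H2A, 14 H2B, 9 H3 and 11 H4 genes. They fall into 3 runs of 19, 5 and 30 genes, with 36 protein-coding vomeronasal receptor genes and 77 tRNA genes in the same span. A further 2 histone genes lie beyond Trim38. Promoter windows, from 250 bases before to 50 after a gene's start, were found for 49 of the 54 genes, in 50 windows. The first H1, H2A, H3 and H4 windows in chromosomal order, and a window that 2 H2B genes share, are printed to show what the promoters of this cluster look like. Capitals mark matches to 4 motifs, each searched on both strands. The TATA box was searched as TATAAA and the CCAAT box by the letters of its name. The octamer known from H2B promoters was searched as ATTTGCAT, and the box known from H1 promoters as AAACACA. Overlapping matches count for both motifs.
H1f5 (minus strand, GRCm38.p6 chr13:21780576-21780875): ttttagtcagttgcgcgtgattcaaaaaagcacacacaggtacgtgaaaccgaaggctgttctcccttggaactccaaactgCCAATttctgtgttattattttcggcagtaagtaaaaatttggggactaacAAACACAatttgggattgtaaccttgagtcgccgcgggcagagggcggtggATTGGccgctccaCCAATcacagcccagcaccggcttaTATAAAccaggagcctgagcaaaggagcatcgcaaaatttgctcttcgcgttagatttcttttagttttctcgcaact
H2ac13 (plus strand, GRCm38.p6 chr13:21716162-21716461): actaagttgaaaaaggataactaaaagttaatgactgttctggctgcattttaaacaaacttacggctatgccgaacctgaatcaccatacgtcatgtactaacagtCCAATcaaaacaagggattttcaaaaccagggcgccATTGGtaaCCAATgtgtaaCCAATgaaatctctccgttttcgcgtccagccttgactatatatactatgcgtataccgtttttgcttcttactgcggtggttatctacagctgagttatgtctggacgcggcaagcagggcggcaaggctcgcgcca
H3c10 (plus strand, GRCm38.p6 chr13:21717378-21717677): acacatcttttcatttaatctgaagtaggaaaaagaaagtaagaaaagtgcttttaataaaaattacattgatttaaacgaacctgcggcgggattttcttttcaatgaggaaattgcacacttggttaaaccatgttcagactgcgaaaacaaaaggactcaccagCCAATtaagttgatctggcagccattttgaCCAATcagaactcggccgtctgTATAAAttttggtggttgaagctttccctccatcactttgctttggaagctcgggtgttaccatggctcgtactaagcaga
H4c11 (plus strand, GRCm38.p6 chr13:21734784-21735083): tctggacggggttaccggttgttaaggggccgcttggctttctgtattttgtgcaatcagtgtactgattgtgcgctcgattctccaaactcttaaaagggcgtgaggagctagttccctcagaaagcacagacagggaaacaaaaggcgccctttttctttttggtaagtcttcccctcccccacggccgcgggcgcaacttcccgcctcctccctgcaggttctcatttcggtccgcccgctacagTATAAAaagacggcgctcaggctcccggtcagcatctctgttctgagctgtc
H2bc23 (minus strand, GRCm38.p6 chr13:21810150-21810449): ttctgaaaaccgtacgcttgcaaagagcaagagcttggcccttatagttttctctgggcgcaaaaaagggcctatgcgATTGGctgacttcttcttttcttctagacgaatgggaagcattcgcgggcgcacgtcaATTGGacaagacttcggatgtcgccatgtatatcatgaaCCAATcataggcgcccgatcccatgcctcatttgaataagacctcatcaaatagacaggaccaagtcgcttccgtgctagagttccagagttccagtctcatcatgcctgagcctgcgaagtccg

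CCAAT stood in 42 of the 50 cluster windows, against 37.4% of all 32851 promoter windows of the reference. It was present in all 6 H1, 12 H2A, 14 H2B and 7 H3 windows and in 3 of 11 H4 windows. TATAAA stood in 29 of 50 windows, against 13.6% of all promoters. The H1 box was found in 5 of 6 H1 windows and in 1 H2A and 1 H2B window, with 7.18% over all promoters. The octamer was found in 5 of 14 H2B and 4 of 12 H2A windows and in no H1, H3 or H4 window, with 1.74% over all promoters. H2A and H2B genes often lie head to head, so that 1 stretch of DNA is counted in the windows of both. These matches are letters in a window and do not show that a factor binds there.

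Some copies are near-identical. The windows of H2bc23 and of the gene RefSeq calls H4bc24, an H2B gene by its older name, were the same in all 300 bases, so the last sequence above stands for both. The windows of H4c17 and H4c18 matched in 298 bases and those of H4c11 and H4c12 in 274, after shifting 1 window against the other. No further pair of the 1225 compared matched in more than 200 bases. How reads that match several copies were placed is not given in the sources used here, and peaks over such copies are uncertain.

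The H3K4me3 peaks of the window were dense, narrow and mostly weak in every cell type. NEC had 72 of them, aRG-P 36, aRG-N 45, bRG 38 and N 37. They covered 54.6 kb for NEC, 16.5 kb for aRG-P, 29.6 kb for aRG-N, 20.4 kb for bRG and 22.2 kb for N. NEC was highest on both measures and aRG-P lowest, with N inside the range of the E14.5 progenitors.

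When each chromosome was divided into stretches as long as the window, 1166 stretches held an NEC H3K4me3 peak, at a median of 11 peaks. Of these, 12 held more than this one. In the other lists between 33 (aRG-N) and 75 (aRG-P) stretches held more. The median distance between neighbouring peaks of the window was 2.59 kb in NEC against 35.7 kb over its whole list, and 15.2 kb in N against 40.5 kb.

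The median width was 572 bp in NEC, where the whole list had 1002 bp. It was 358.5 bp in aRG-P against 631 bp, 470 bp in aRG-N against 927 bp, 411 bp in bRG against 756 bp, and 451 bp in N against 719 bp. Fold enrichment, the authors' ratio to background for a peak, was compared only within a list, as the percentile that a peak takes among all peaks of that list. The median percentile of the window's peaks was 20.6 for NEC, 18.4 for aRG-P, 17.4 for aRG-N, 21.6 for bRG and 24.6 for N. Only 8 of 72 NEC peaks exceeded the median of their list, as did 4 of 36 in aRG-P, 3 of 45 in aRG-N, 4 of 38 in bRG and 6 of 37 in N, where 3 more equalled it. The weakness was thus seen in neurons and in progenitors alike.

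**Figure D1:**
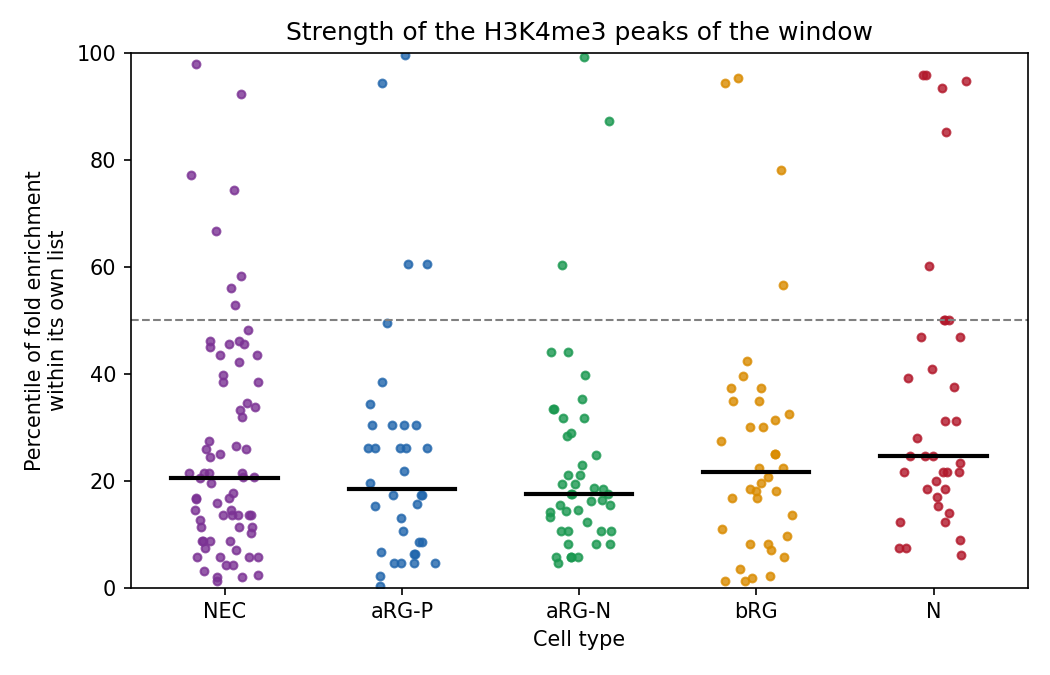
Each point is 1 H3K4me3 peak of the window, placed by the percentile of its fold enrichment within its own list (y axis, in percent) for the 5 cell types (x axis). Black bars are medians, from 17.4 in aRG-N to 24.6 in N, all below the dashed line at the list median. Points are spread sideways for visibility.

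The peaks lay in 3 parts. Joining peaks of the 5 lists that shared at least 1 bp gave 76 H3K4me3 regions. Part 1, from 21807023 to 21880085, held 14 regions in 73.1 kb. Part 2, from 21988890 to 22136018, held 13 in 147.1 kb. Part 3, from 23361704 to 23856534, held 49 in 494.8 kb. Between parts 2 and 3 no list had an H3K4me3 peak over 1225.7 kb, and between parts 1 and 2 none over 108.8 kb. The members nearest to the borders of the window, at 21807023 and 23856534, were below the list median in NEC, with fold enrichments of 6.56 and 14.3. The nearest NEC peaks outside, 157.0 and 501.6 kb beyond the borders, had 21.7 and 32.5.

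**Figure D2:**
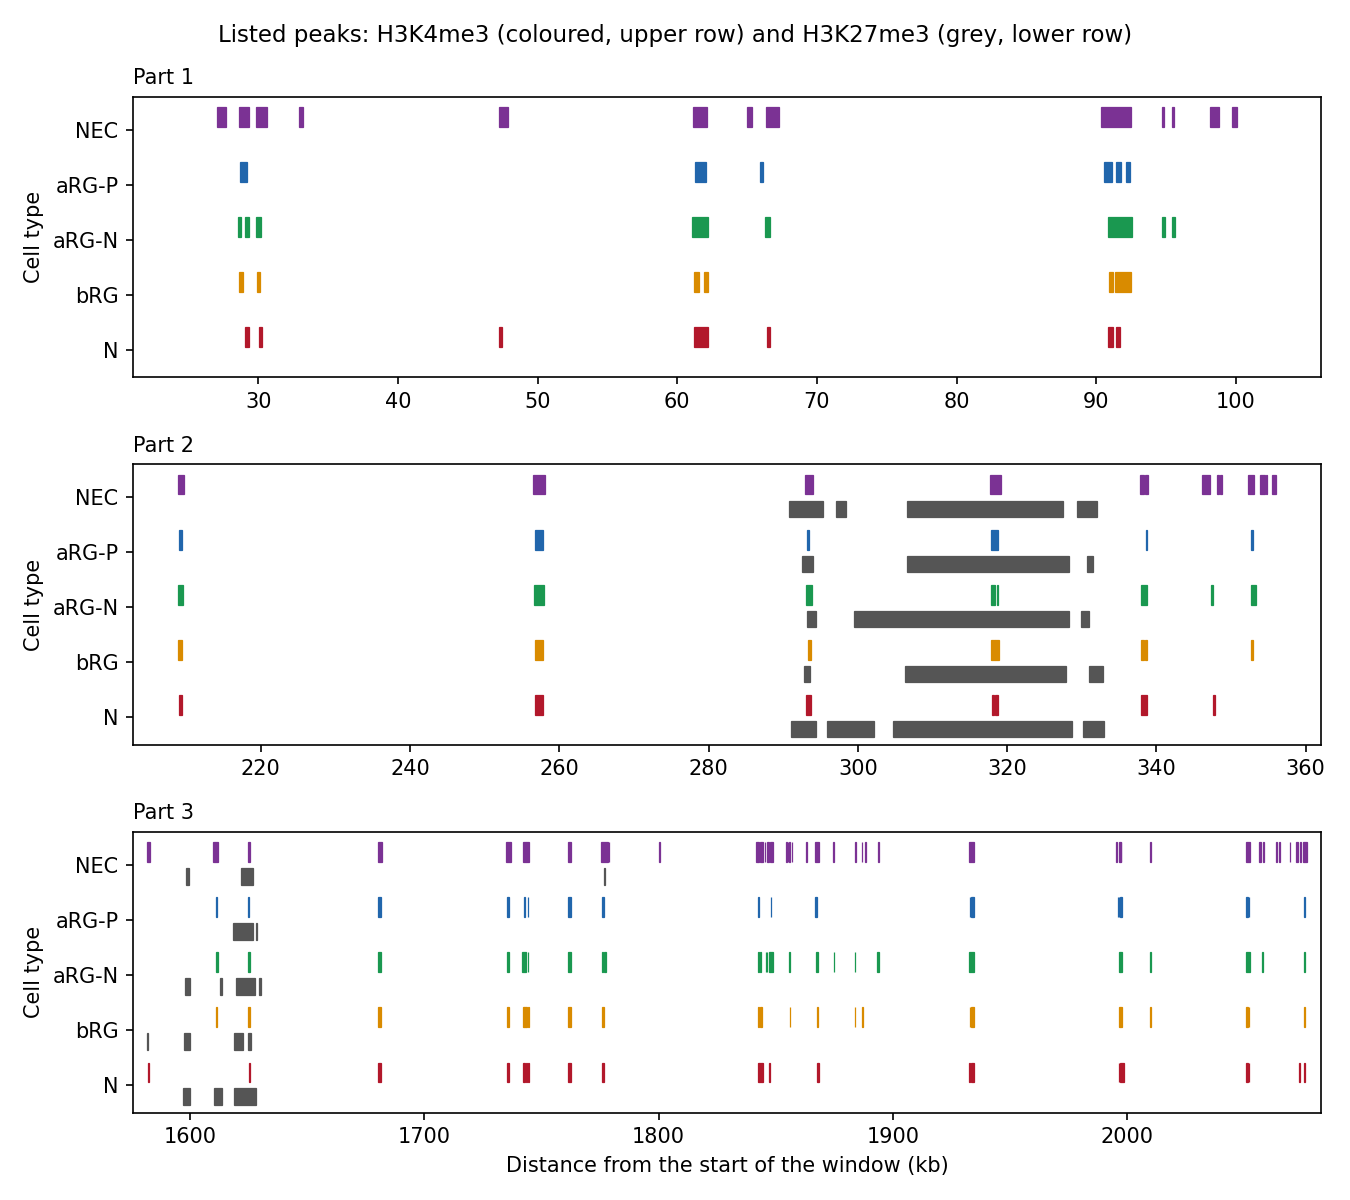
Listed peaks of the 3 parts of the window, 1 panel each, by distance from the start of the window in kb (x axis) and by cell type (y axis). Coloured boxes are H3K4me3 peaks and grey boxes H3K27me3 peaks, drawn to scale. H3K27me3 fills a stretch of part 2 and the left of part 3 in every cell type, part 1 holds none, and NEC has more H3K4me3 peaks than the other lists.

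Of the 76 regions, 22 (28.9%) had a peak in all 5 lists, against 67.9% of the 17229 regions of the whole series. With peaks joined across gaps of up to 3000 bp the window had 20 of 34 regions in all 5 lists, a much higher share. The series' share with the same joining was not computed, so the contrast with the series depends on how peaks are joined. NEC alone had 30 regions (39.5%, against 15.8% in the series). Next came 6 regions found in NEC and aRG-N and 3 in NEC, aRG-N and bRG. Each of the other 10 patterns held 1 or 2 regions.

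The strongest region in every list was chr13:23514776-23516404. Its fold enrichment was 43.8 for NEC, 19.3 for aRG-P, 24.4 for aRG-N, 14.4 for bRG and 12.9 for N. These values stood at percentiles 97.97, 99.6, 99.2, 95.3 and 95.8 of their lists, so this region went against the general weakness in all 5. Its highest points lay within 67 bp of each other in the 5 lists. The region at chr13:22036450-22038060 followed in NEC, aRG-N and bRG, with 37.9 for NEC, 10.3 for aRG-P, 18.4 for aRG-N, 14.2 for bRG and 12.4 for N. The region at chr13:23460119-23461799 had 25.6, 15.4, 13.6, 11.6 and 12.9 in the same order, and equalled the strongest region in N. Its percentiles within the lists were 66.6, 94.3, 60.4, 78.1 and 95.8.

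Of the other shared regions with high values, chr13:21988890-21989788 ranked between the fourth and the seventh of the 22 in every list. Its percentiles were 56.0 for NEC, 38.5 for aRG-P, 35.2 for aRG-N, 56.6 for bRG and 85.2 for N. The widest region, chr13:23555593-23558222 (2630 bp), was filled by 1 NEC peak, and the N peak in it spanned 1089 bp. Its fold enrichment was 17.2 for NEC, 10.3 for aRG-P, 10.8 for aRG-N, 7.76 for bRG and 12.6 for N. Within their lists these values stood at percentiles 46.1, 60.5, 44.1, 42.3 and 94.7, highest in N. The strongest region of part 1 in every list but aRG-P, chr13:21870367-21872599, had 22.2, 6.85, 10.8, 7.25 and 7.99. In aRG-P the region chr13:21845913-21846118 was higher, with 7.28. Other wide regions were chr13:23712300-23714529 and chr13:23830638-23832429.

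At the low end, chr13:21808556-21809342 had fold enrichments of 9.85 for NEC, 4.71 for aRG-P, 4.44 for aRG-N, 4.42 for bRG and 4.97 for N, and yet a peak in each list. The next lowest were chr13:23523429-23524842, chr13:21841085-21842196 and chr13:23404623-23405822. The order of the 22 shared regions by fold enrichment was partly alike in the lists, and least so between NEC and aRG-P. Spearman's rho ranged from 0.54 (NEC and aRG-P) to 0.88 (aRG-N and bRG), and was 0.57 to 0.77 between N and the progenitor lists. This is a description over 22 neighbouring regions that share their libraries.

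**Figure D3:**
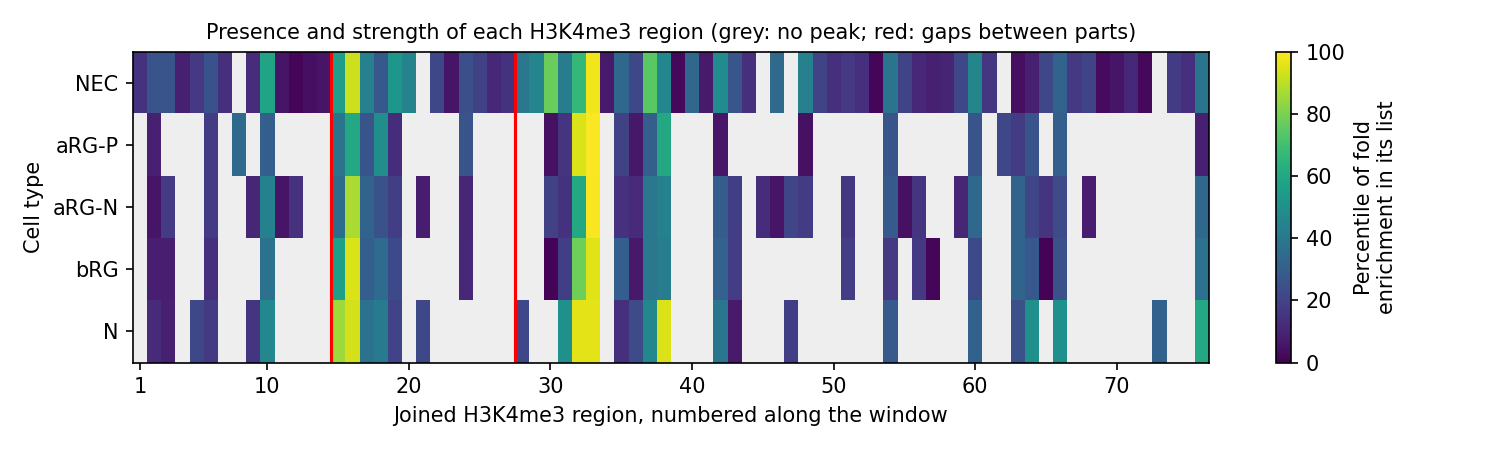
The 76 joined H3K4me3 regions in chromosomal order (x axis) by cell type (y axis), coloured by the percentile (0 to 100) of their strongest peak's fold enrichment within its list, with grey where a list has no peak and red lines between the parts. The 22 regions filled in all 5 rows are interspersed among 30 filled in NEC alone.

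Neurons kept a peak at most regions marked in every progenitor list, though, counted by peaks, at a smaller share than over the series. Of 24 such regions, 22 had a peak in N and 2 did not, while 1 region was found in N alone (1 of 37 N peaks, 2.70%, against 1.6% of the N list). The share of such regions kept in N was not computed for the series. Counted by peaks, 25 aRG-N peaks of the window overlapped a peak in NEC, aRG-P and bRG, and 3 of these (12%) overlapped none in N, against 2.35% of the 12488 such peaks of the series. One of the 3, from 21808556 to 21808773, lay 253 bp from an N peak, in a joined region with a peak in all 5 lists. With 3 peaks the exact 95% binomial interval runs from 2.55 to 31.2%, and it covers counting error only, as do all intervals here. The count fell to 1 when an N peak within 5000 bp was counted as present, and to 1 with a −log10 q of at least 5.

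One of the 2 regions missing in N was chr13:23390729-23392008. It had a fold enrichment of 30.0 in NEC (percentile 77.1), 4.28 in aRG-P, 6.34 in aRG-N and 3.46 in bRG, and no peak in N nearer than 13034 bp to the NEC peak. In N an H3K27me3 peak from 23390365 to 23393775 spanned it, and in no other list did an H3K27me3 peak overlap it. The neighbouring region chr13:23389819-23390643, marked in NEC only (17.0), was also touched by this N peak. The other missing region, chr13:22132265-22133282, had fold enrichments of 9.36 for NEC, 6.43 for aRG-P, 5.07 for aRG-N and 4.67 for bRG. It carried no H3K27me3 in any list, and the nearest N peak lay 4396 bp from its NEC peak. For both regions the neighbouring N peaks skip 1 peak number, so that 1 N call of unknown position between them is not listed, and it could lie at the region.

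Pair by pair, the share of unshared peaks was higher in the window than over the whole lists. The whole list's share lay below the interval in every pair but that of N peaks without an NEC peak. The intervals treat neighbouring peaks as independent, and all pairs use the same N list, so this is a description and no test. In NEC, 43 of 72 peaks (59.7%, interval 47.5 to 71.1%) overlapped no N peak, against 23.4% of the whole list. In aRG-P these were 7 of 36 (19.4%, 8.19 to 36.0%) against 7.11%. In aRG-N they were 15 of 45 (33.3%, 20.0 to 49.0%) against 10.8%, and in bRG 7 of 38 (18.4%, 7.74 to 34.3%) against 6.58%.

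In the reverse direction, 3 of 37 N peaks (8.11%, interval 1.70 to 21.9%) overlapped none in NEC, and the N list's share of 3.55% lay inside that interval. The counts were 11 (29.7%, 15.9 to 47.0%) against 9.91% for aRG-P, 6 (16.2%, 6.19 to 32.0%) against 5.46% for aRG-N and 9 (24.3%, 11.8 to 41.2%) against 8.25% for bRG. Progenitor peaks without an N peak thus outnumbered the reverse in NEC (43 and 3) and aRG-N (15 and 6). In aRG-P (7 and 11) and bRG (7 and 9) they were fewer. The lists differ in length (17867 peaks for NEC and 15759 for N), and with each cut to 14801 peaks the NEC counts were 19 and 6. The direction turned for bRG when a peak within 5000 bp counted as present (5 and 2), while that for aRG-P rested on 1 and 2 peaks. The 2 lists with the most peaks in the window were those with the excess.

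NEC peaks were also often unshared with the other progenitors. Of its 72 peaks, 46 (63.9%, against 25.2% of the NEC list) overlapped none in aRG-P, 33 (45.8%, against 18.6%) none in aRG-N and 40 (55.6%, against 24.3%) none in bRG. In no E14.5 list was there a peak over 30 of them (41.7%, against 15.2%). Nearly all peaks of the other progenitors were present in NEC. Only 2 of 36 aRG-P peaks (5.56%, against 2.62%), 3 of 45 aRG-N peaks (6.67%, against 2.5%) and 0 of 38 bRG peaks (against 2.43%) lacked one, where 0 of 38 allows a share of up to 9.25% by the exact interval. Stage and cell type cannot be told apart for NEC, the only E9.5 list of each mark.

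The unshared peaks were weak ones. In aRG-N the 15 had fold enrichments from 4.33 to 6.34, all at or under percentile 19.3 of the list, and widths from 218 to 1122 bp. The 11 N peaks without an aRG-P peak had 4.42 to 6.61. Among the peaks above their list's median, 1 of 8 NEC peaks and none of the 4 aRG-P, 3 aRG-N and 4 bRG peaks lacked an N peak. That NEC peak is the one at 23390729 described above.

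Because window peaks were weak, the shares were also set beside those of weak peaks of the series, a comparison added after seeing the data. Among peaks at or below the median fold enrichment of their list, 42 of 64 NEC peaks of the window (65.6%) lacked an N peak, against 45.1% over the series. The values were 7 of 32 (21.9%) against 13.8% in aRG-P, 15 of 42 (35.7%) against 21.4% in aRG-N and 7 of 34 (20.6%) against 13% in bRG. Of 31 such N peaks, 3 (9.68%, against 6.69%) lacked an NEC peak and 11 (35.5%, against 19%) an aRG-P peak. For aRG-N they were 6 (19.4%, against 10.4%) and for bRG 9 (29.0%, against 15.9%). The differences from the series were smaller than for all peaks, and the window lay above it in each of the 8. Apart from the NEC peaks, each share rests on 3 to 15 peaks. No intervals were computed for these shares, so an excess is not shown pair by pair. Such peaks were not matched more finely for strength, and the part of strength in the remaining difference was not tested.

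Many unshared peaks lay close to a peak of the other list. Of the 7 aRG-P peaks without an N peak, 1 had none within 5000 bp, and the median distance was 448 bp. Of 43 NEC peaks, 21 had no N peak within 5000 bp, as had 8 of 15 in aRG-N and 5 of 7 in bRG. Of the N peaks, none lacked an NEC peak within 5000 bp and 2 lacked one of each E14.5 progenitor list. Those 2 N peaks, from 21827233 to 21827452 and from 23361941 to 23362474, each lay in a region shared with NEC only.

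**Figure D4:**
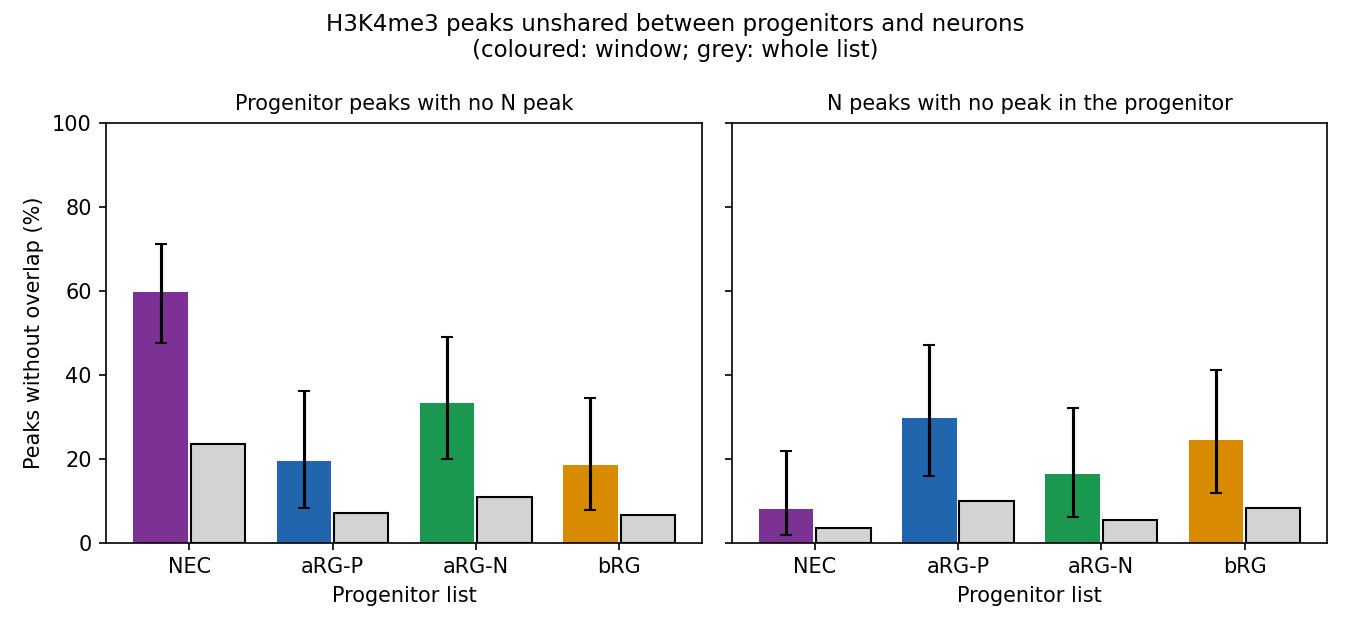
Percentage of H3K4me3 peaks (y axis) with no overlapping peak in the other list, for progenitor peaks against N (left) and N peaks against each progenitor list (right, x axis: progenitor list). Coloured bars are the peaks of the window with exact 95% binomial intervals and grey bars the whole lists, which are lower in all 8 pairs (59.7 against 23.4% for NEC peaks without an N peak).

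Regions found in few lists had mostly low values. The 30 regions marked in NEC alone had a median fold enrichment of 6.40 in NEC, from 3.94 to 17.0, against 16.0 (4.73 to 43.8) for the 22 shared ones. The highest were chr13:23389819-23390643 (17.0), chr13:22126068-22127136 (16.7) and chr13:23580172-23580714 (12.3). The region marked in N alone, chr13:23853292-23853593, had a fold enrichment of 6.61 (percentile 31.2), and an NEC peak began 46 bp after it. The 2 regions marked in aRG-P alone, chr13:21845913-21846118 (7.28) and chr13:23776028-23776209 (5.998), lay 281 and 152 bp from the nearest N peak. A region shared by aRG-N and N, chr13:22127364-22127869 (4.76 and 5.79), lay between 2 NEC peaks, and its N peak was 251 bp from the nearer one.

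Other incomplete regions kept a peak in N. At chr13:23361704-23363161 NEC had 14.8 and N 5.79, and at chr13:21827228-21827884 they had 7.10 and 5.79, with no peak in the other 3 lists. Within the lists of NEC and N these stood at percentiles 39.7 and 21.7 for the first region, and 16.7 and 21.7 for the second. The regions chr13:21809825-21810596 and chr13:23622989-23624518 lacked a peak in aRG-P only. Their N values were 4.69 and 4.502.

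A dense stretch of part 3, chosen after its values were seen, held many of the peaks that N lacked. It runs from 23621699 to 23674211 (52.5 kb) and is bounded by 40.98 and 38.1 kb without a listed region. NEC had 17 peaks there, aRG-P 4, aRG-N 11, bRG 6 and N 6. They covered 10.3 kb for NEC, 1.09 kb for aRG-P, 5.42 kb for aRG-N, 2.41 kb for bRG and 2.75 kb for N. Among its 19 regions, 2 had a peak in all 5 lists and 7 in NEC alone. Of the 15 aRG-N peaks of the window without an N peak, 7 lay in this stretch, as did 14 of the 43 NEC peaks. From 23648443 to 23712592, a gap that begins inside the stretch, 2 N calls of unknown position are not listed. From 23556781 to 23622310, a gap that ends inside the stretch, 1 more N call is not listed. These calls could lie at peaks of the stretch counted as lacking N. The region chr13:23627563-23628776 had 16.3 in NEC, 4.28 in aRG-P and 6.03 in aRG-N and no peak in bRG or N. The region chr13:23626030-23627022 had 12.8 in NEC and 4.44 in aRG-N only. No H3K27me3 peak of the same cell type overlapped an H3K4me3 peak of the stretch in any list.

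H3K27me3 was confined, in these lists, to 9 regions of parts 2 and 3, and 4 of these regions carried it in every cell type. NEC, aRG-N, bRG and N each had 7 peaks in the window and aRG-P had 5. They covered 36.5 kb for NEC, 32.7 kb for aRG-P, 42.3 kb for aRG-N, 32.1 kb for bRG and 52.5 kb for N. No H3K27me3 peak lay in part 1 in any list. The values of these peaks are called scores, since the meaning of the deposited columns could not be settled.

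The main domain, chr13:22075870-22108647, was present in all 5 lists. It was covered over 22.3 kb for NEC, 21.8 kb for aRG-P, 28.9 kb for aRG-N, 21.6 kb for bRG and 30.1 kb for N. Its longest peak stood at width percentiles between 97.8 (bRG) and 98.9 (NEC and aRG-N) of the lists. An H3K4me3 region shared by all lists, chr13:22097691-22099185, lay inside it. The second domain, chr13:23398568-23408482, was also present in all 5, with 5.33 kb for NEC, 8.73 kb for aRG-P, 8.05 kb for aRG-N, 5.10 kb for bRG and 9.66 kb for N. It too enclosed an H3K4me3 region shared by all lists, chr13:23404623-23405822.

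Smaller H3K27me3 regions in all 5 lists were chr13:22070726-22075326, over the shared H3K4me3 region chr13:22072939-22073996, and chr13:22109351-22112975, without H3K4me3. The region chr13:23376947-23380108 was absent in aRG-P only. The region chr13:23390365-23393775 held the N peak named above and an aRG-N peak of 0.437 kb. Single-list regions were chr13:23361775-23362244 (bRG), chr13:23409584-23410136 (aRG-N) and chr13:23556634-23556987 (NEC).

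H3K4me3 peaks that overlapped H3K27me3 of the same cell type numbered 4 of 72 in NEC (5.56%), against 25.9% of the NEC list. They were 3 of 36 in aRG-P (8.33% against 8.90%), 5 of 45 in aRG-N (11.1% against 14.4%), 4 of 38 in bRG (10.5% against 8.41%) and 4 of 37 in N (10.8% against 12.7%). In NEC the interval of the window's share was 1.53 to 13.6%, and at E14.5 the series' share lay inside the window's interval. Seen from H3K27me3, 4 of 7 NEC peaks overlapped H3K4me3 (against 40.5% of the list), 3 of 5 in aRG-P (23.4%), 3 of 7 in aRG-N (27.8%), 3 of 7 in bRG (32%) and 3 of 7 in N (30.5%). With 5 to 7 peaks a list, these shares are too coarse to be set against the background. The 3 regions with both marks in all 5 lists were the ones named above. Overlap of separate lists does not show both marks on the same copy of the chromosome.

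A large part of the H3K4me3 calls made in the window is not in the lists used here. The authors' peak numbers run along the genome, so a missing number between neighbours shows a call that was not listed. Between the first and the last listed peak of the window, 61 of 133 NEC calls (45.9%) were missing, against 17.8% of calls over the whole list. The share was 30.8% in aRG-P (16 of 52, against 8.59%), 33.8% in aRG-N (23 of 68, against 10.9%), 30.9% in bRG (17 of 55, against 8.56%) and 35.1% in N (20 of 57, against 9.22%). The headers name transcripts as the filter on the lists. The counts of peaks given here are therefore counts of listed peaks, and a region without a listed peak may hold a call that was left out.

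**Figure D5:**
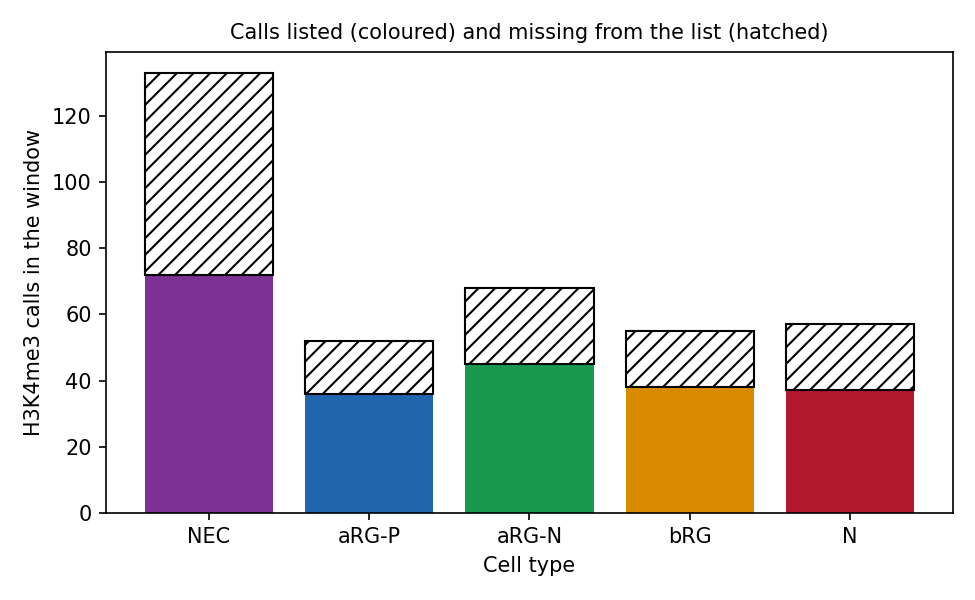
H3K4me3 calls between the first and the last listed peak of the window (y axis, number of calls) by cell type (x axis), split into listed calls (coloured) and calls whose number is missing from the list (hatched). Missing calls number 61 in NEC and 16 to 23 in the other lists.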

How the data were processed

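The members, gene groups and comparisons were chosen with earlier results of these data known. The deposited values were 10 peak lists of combined samples (mm9; Bowtie 1.0.0, MACS2 and bedtools, per the submitters' processing notes), and 2 Input samples were not used. Deposited H3K4me3 values are the authors' fold enrichment, a ratio over background, with the −log10 of p and of q for each peak. For H3K27me3 the deposited values are called a score. Peak names record the removal of duplicates for every list but aRG-P H3K27me3, whose names say that a set was left out, and the N H3K27me3 reads were extended by 200 bp. Per the file headers, the aRG-P and aRG-N H3K4me3 lists allowed 2000 bp around transcripts. Per the labels, the aRG-N H3K27me3 samples were technical replicates.

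Positions are 1-based. Peaks touching the window were compared by an overlap of at least 1 bp, in Python 3.11.15 (pandas 2.3.3, numpy 2.4.6). Intervals are Clopper-Pearson (scipy 1.17.1), and matplotlib 3.10.9 made the figures. Parts were separated by gaps of at least 100 kb. Overlap calling was checked on listed peaks, by removing random peaks from the aRG-N H3K4me3 list and by direct comparison on the window's chromosome. Named regions were the 15 incomplete regions with the highest percentile, the 6 highest and 4 lowest shared ones, the 4 widest and every H3K27me3 region, and others were chosen after their values were seen. Promoter sequences came from RefSeq, and no mm9 gene annotation was used.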

Additional observations from a re-analysis of the deposited data

How the results depend on the processing

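No paired analysis was possible because each list was called on combined samples, and no replicate could be left out for the same reason. Of 87 alternative values, 63 stayed within 1.5 times the reported count or inside the interval of the reported median, and 24 did not. Regions in all 5 lists were compared by count and not by share. Their share did change, from 22 of 76 regions as reported to 20 of 34 with peaks joined across 3000 bp. Where a peak within 5000 bp counted as present, peaks without an N peak numbered 21 for NEC, 1 for aRG-P, 8 for aRG-N and 5 for bRG. N peaks then lacked a counterpart 0 times in NEC and 2 times each in aRG-P, aRG-N and bRG, which turned the direction for bRG (7 and 9 as reported), and 1 aRG-N peak found in all progenitor lists lacked an N peak. With every list cut to as many peaks as the shortest one holds, 19 NEC and 4 aRG-P peaks lacked an N peak and 6 N peaks an NEC peak. The same cut left 4 H3K27me3 peaks in NEC, 3 in aRG-P and 2 in aRG-N. With a −log10 q of at least 5, 4 aRG-P and 3 bRG peaks lacked an N peak, and 1 aRG-N peak found in all progenitor lists did. With an overlap of at least 50%, 5 N peaks lacked an NEC peak. H3K27me3 peaks joined across 3000 bp numbered 3 in aRG-P and 4 in N. For peaks of regions in all 5 lists only, the median percentile of fold enrichment was 42.9 in NEC and 26.5 in aRG-N, and that of width was 61.1 and 39.0, since weak unshared peaks were left out. The cause of the other shifts was not tested beyond what each setting removes. Under the cut to equal length, more NEC peaks still lacked an N peak (19) than the reverse (6).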

Other observations

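The missing H3K4me3 calls of the window were unevenly placed. Between neighbouring listed peaks that both lay within part 1, no number was missing in any list. The same held within the dense stretch from 23621699 to 23674211. Gaps that crossed the edges did miss calls of unknown position. In N, 1 call was missing from 21871713 to 21988988, which begins in part 1, and 2 from 23648443 to 23712592, which begins in the stretch. Another N call was missing from 23556781 to 23622310, which ends in the stretch. Gaps of aRG-P and aRG-N crossing the edges of part 1 or of the stretch missed calls too, as did a bRG gap at the stretch. The largest number missing between neighbouring listed peaks was 15, in NEC over the 40.98 kb that precede that stretch, followed by 12 in NEC over the 46.7 kb after 21989788. The other lists missed 2 (aRG-P), 5 (aRG-N), 0 (bRG) and 1 (N) calls between the corresponding neighbours of the first of these gaps, and 0, 1, 2 and 2 between those of the second. Between the last listed peak of part 2 and the first of part 3, 1 to 3 calls per list were missing. In every list but NEC this gap reaches into the parts, so those calls need not lie between them. For H3K27me3 the numbers missing in the window were 3 for NEC, 1 for aRG-P, 0 for aRG-N, 1 for bRG and 0 for N.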
